A study of Pyrus syriaca and Pyrus pyrifolia and Pyrus communis with 12 samples.

Results

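The stigma exudate of cultivated pears was compared with the stigma tissue that releases it, across every microRNA (miR) listed in the deposited raw count table. The members were chosen by label: 6 of the 12 libraries of the series, namely the exudate and the stigma of each of 3 cultivars. In these 6 libraries 82 miRs had at least 1 read, of 355 miR sequences listed and of 120 with a read anywhere in the series. The groups were cultivated exudate (Hosui and Shinsui of Pyrus pyrifolia, Spadona of Pyrus communis) and cultivated stigma (the same 3 cultivars), all at 430 m altitude and sampled at 12 hours after anthesis (HAA) from unpollinated flowers. The other 6 libraries were exudate and stigma of 3 wild Pyrus syriaca populations at 450, 830 and 900 m, sampled at the same time. Each library came from flowers of 1 genotype that were pooled, each cultivar gave 1 exudate and 1 stigma library, and the 3 cultivars served as replicates, so the spread between replicates also holds the difference between cultivars and species. The exudate was rinsed off the stigma surface with water after the anthers were taken off, and then centrifuged, while stigma lobes were excised.

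Pear has a wet stigma, whose papilla cells release a fluid in which pollen adheres, hydrates and germinates. miRs are small RNAs, carried by Argonaute proteins, that pair with target transcripts and lead to their cleavage or to translational repression, and some are found outside cells in plant fluids. In plants the families seen here are known, mainly from Arabidopsis and other model species, for the control of transcription factors (miR156, miR159, miR164, miR169, miR396), of the silencing machinery itself (miR162, miR168), of auxin responses (miR167, miR390), of nutrient supply (miR395, miR399, miR408) and of NBS-LRR resistance genes (miR482, miR2118).

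The sequences below are those of the miRs on which the comparison turned, as the table lists them, 5′ to 3′, with the seed (bases 2 to 8) in capitals. The prefix names the species in which the sequence is known: apple (mdm), strawberry (fve) or peach (ppe). The most abundant miRs and those with the greatest differences in share came first.
mdm-miR482d: aAUGGAAGgguaggaaagaag
mdm-miR2118a: cUACCGAUgccacuaaguccca
mdm-miR164b: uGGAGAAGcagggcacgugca
mdm-miR169a: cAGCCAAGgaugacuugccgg
The next set held the miR168 arms, miRs seen mainly in exudate, a miR482 of the 3p arm and the most abundant miR without an exudate read.
mdm-miR168a: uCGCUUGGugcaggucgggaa
fve-miR168-3p: cCCGCCUUgcaucaacugaau
mdm-miR390a: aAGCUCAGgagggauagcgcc
mdm-miR7121d: uCCUCUUGgugaucgcccugc
mdm-miR7121a: uCCUCUUGgugaucgcccugu
mdm-miR482a-3p: uUCCCAAGcccgcccauuccua
mdm-miR7124a: cACCAAUAucaacuuuauuug
mdm-miR7121a and mdm-miR7121d differed by U21C, counted from the 5′ end with the base of mdm-miR7121a given before the position, and they shared their seed. Among the 82 miRs there were 55 seeds, of which 28 had an exudate read and 50 a stigma read. Reads were assigned by the authors with mismatches and end offsets allowed, so these letters are those of the listed reference and not of the pear reads.

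The cultivated exudates held few miR reads. There were 41 reads in Hosui, 79 in Shinsui and 49 in Spadona exudate, against 337, 199 and 512 in the stigmas of the same cultivars. Every exudate was below every stigma, and the stigma of a cultivar held 8.22 (Hosui), 2.52 (Shinsui) and 10.4 (Spadona) times the reads of its exudate. The log2 ratio of exudate to stigma averaged -2.59 ± 1.10 (SD, n = 3), lower in 3 of 3 cultivars, with p = 0.25 in an exact two-sided sign-flip test, which is the smallest p that 3 pairs allow. These totals count reads on listed miRs only and are not the sequencing depth, for which no figure per library is used here. In such a ratio a lower miR content, less RNA and a shallower library cannot be told apart, so shares of the miR reads of a library are used from here on.

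The small totals set what a count of 0 can show. With 3 reads as the limit that a count of 0 allows, a miR without a read could still have made up 7.32% of the Hosui, 3.80% of the Shinsui and 6.12% of the Spadona exudate. The same limit was 0.890%, 1.51% and 0.586% in the stigmas of these cultivars. Over the 3 exudates together it was 1.78% of 169 reads, and over the 3 stigmas 0.286% of 1048 reads. Intervals and limits given here cover counting error only, since the reads carry no molecular identifiers.

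**Figure D1:**
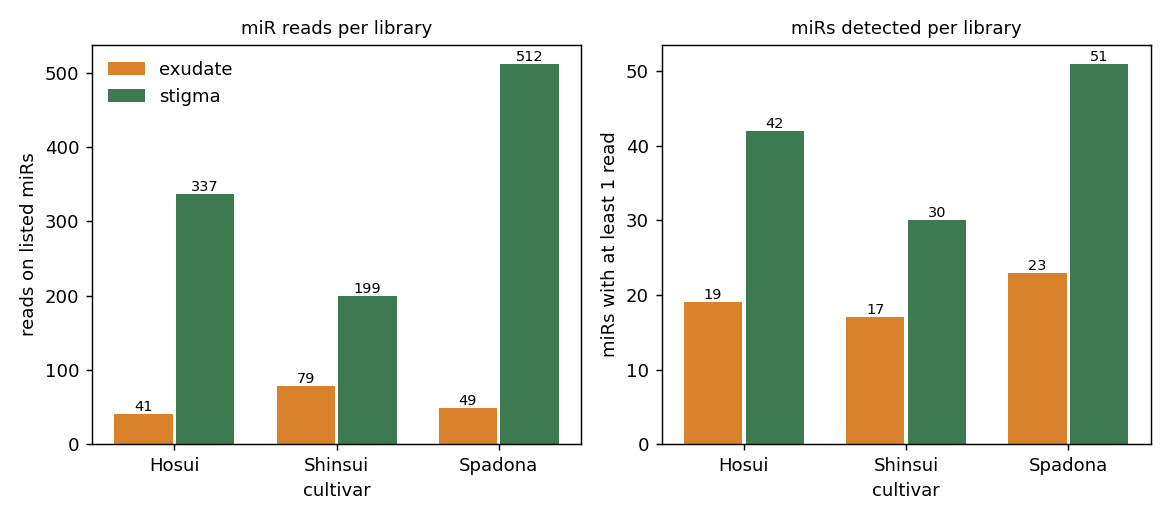
Reads on listed miRs (left) and number of miRs with at least 1 read (right) in each library, with exudate (orange) left of stigma (green) in each cultivar. Exudates had 41 to 79 miR reads and 17 to 23 miRs, below the 199 to 512 reads and 30 to 51 miRs of the stigmas.

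mdm-miR482d was the most abundant miR in every exudate and in the Hosui and Shinsui stigmas, while mdm-miR164b led the Spadona stigma. It had 17, 51 and 19 reads in the Hosui, Shinsui and Spadona exudates, against 198, 129 and 146 reads in their stigmas. That was a share of 41.5% (95% Wilson interval 27.8 to 56.6%), 64.6% (53.6 to 74.2%) and 38.8% (26.4 to 52.8%) of the exudate reads, against 58.8% (53.4 to 63.9%), 64.8% (58.0 to 71.1%) and 28.5% (24.8 to 32.6%) of the stigma reads. It was lower in the Hosui exudate, nearly equal in Shinsui and higher in the Spadona exudate. The TMM factors of the edgeR test below were computed on the 2 miRs that passed its filter, mdm-miR482d itself and mdm-miR2118a. Scaled by them, the differences were -5.19, -2.92 and -6.50 percentage points, so that the direction in Spadona turned. This scaling drew the shares of mdm-miR482d together, to 44.1 to 45.9% in exudates and 48.9 to 50.6% in stigmas. The turned direction is thus given as a value only. The unscaled share averaged 48.3 ± 14.2% in exudate and 50.7 ± 19.4% in stigma (SD, n = 3 each), and the difference of -2.43 ± 13.9 percentage points was smaller than its spread between cultivars (exact sign-flip test, p = 0.75). In sequence this entry stood apart from the miR482 members that are known to target resistance genes: it could pair at 16 of 19 overlapping positions with mdm-miR482b, counting 1 G-U wobble, whereas the median over 335 other listed miRs was 9 pairs and the highest 15. Its place among the regulators of resistance genes was therefore taken by family name only.

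mdm-miR2118a, of a family known to target NBS-LRR resistance genes in other plants, was the other miR present in all 3 exudates. It had 3, 7 and 4 reads in the Hosui, Shinsui and Spadona exudates, against 9, 8 and 5 reads in the stigmas. These were 7.32%, 8.86% and 8.16% of the exudate reads, against 2.67%, 4.02% and 0.977% of the stigma reads. The exudate shares lay close together and all lay above the stigma shares. The share averaged 8.11 ± 0.773% in exudate and 2.56 ± 1.53% in stigma (SD, n = 3 each), a difference of 5.56 ± 1.41 percentage points, higher in 3 of 3 cultivars (exact sign-flip test, p = 0.25, adjusted p = 0.458 over 11 miRs). At its stigma share, 1.09, 3.18 and 0.479 reads would have been seen in these exudates. When reads on mdm-miR482d were left out of both libraries, its share was 12.5%, 25.0% and 13.3% in exudate, against 6.47%, 11.4% and 1.37% in stigma.

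mdm-miR164b belongs to a family that cleaves transcripts of NAC transcription factors, and it was abundant in stigma and scarce in exudate. It had 1, 0 and 2 reads in the Hosui, Shinsui and Spadona exudates, against 45, 2 and 181 reads in their stigmas. The exudate shares were 2.44% (0.432 to 12.6%), 0% (a limit of 3.80%) and 4.08% (1.13 to 13.7%), against 13.4% (10.1 to 17.4%), 1.01% (0.276 to 3.59%) and 35.4% (31.3 to 39.6%) in stigma. The stigmas themselves were far apart, and the low stigma share of Shinsui lay within the range of the exudates. The mean difference was -14.4 ± 15.4 percentage points, lower in 3 of 3 cultivars (exact sign-flip test, p = 0.25, adjusted p = 0.458). Without Spadona the mean difference was -5.96 percentage points in the remaining pair of cultivars.

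mdm-miR169a, a miR whose known targets encode NF-YA transcription factor subunits, followed the same order with less spread. It had 0, 0 and 1 reads in the Hosui, Shinsui and Spadona exudates, against 13, 8 and 53 reads in the stigmas. The stigma shares were 3.86%, 4.02% and 10.4%, and the 1 read of the Spadona exudate was a share of 2.04%. In the Hosui and Shinsui exudates the limits of 7.32% and 3.80% stood beside these stigma shares, and the limit was below the stigma share in Shinsui alone. The Wilson interval of that stigma share, 2.05 to 7.73%, spans the limit. Fisher's exact test of the Shinsui libraries gave p = 0.110 (adjusted p = 0.662) for mdm-miR169a. The mean difference was -5.40 ± 2.53 percentage points, lower in 3 of 3 cultivars (exact sign-flip test, p = 0.25, adjusted p = 0.458).

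**Figure D2:**
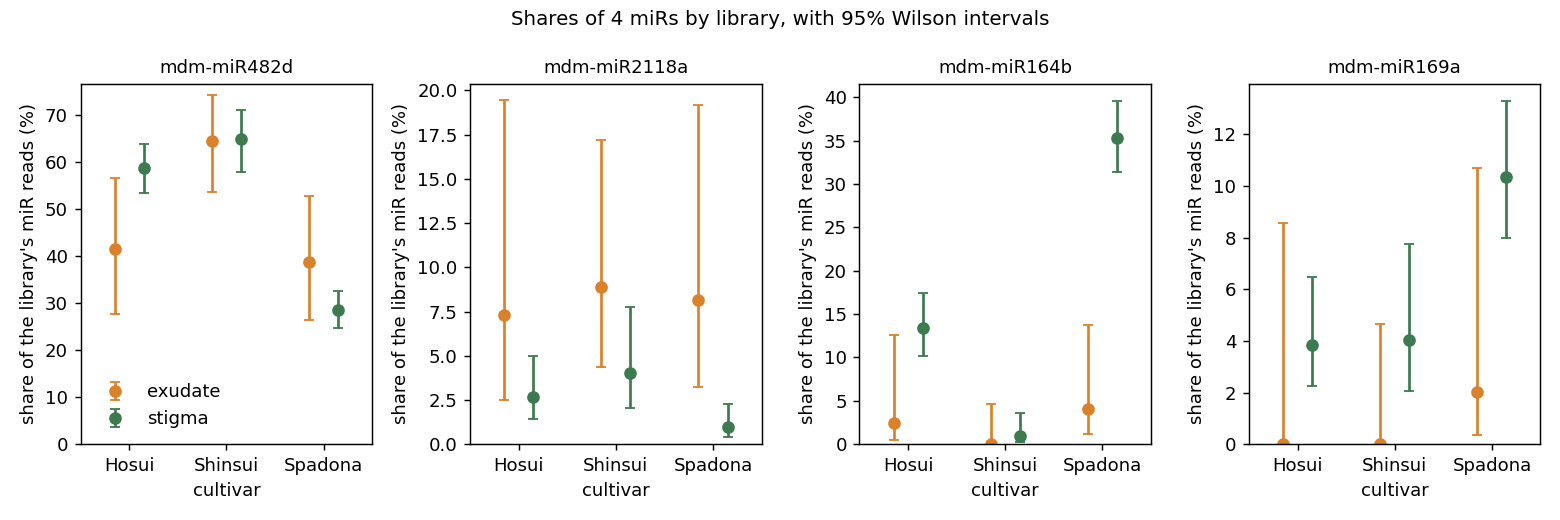
Share of the miR reads of each library (%, linear axes) of mdm-miR482d, mdm-miR2118a, mdm-miR164b and mdm-miR169a, with exudate (orange) left of stigma (green) and 95% Wilson intervals as bars. mdm-miR2118a lay at 7.32 to 8.86% in exudates and 0.977 to 4.02% in stigmas, while mdm-miR164b reached 35.4% in the Spadona stigma and at most 4.08% in an exudate.

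The tests over all miRs gave few calls, and which miRs they called depended on the filter. Of the 11 miRs with at least 10 reads in the 6 libraries, which held 121 of the exudate and 925 of the stigma reads, 3 had a higher share in every exudate (mdm-miR2118a, fve-miR168-3p and mdm-miR159a) and 3 a lower one (mdm-miR164b, mdm-miR169a and mdm-miR7124a). Scaled by the TMM factors computed on 2 miRs, 2 were higher and 5 were lower. The exact sign-flip test called 0 of the 11, which 3 pairs cannot do at an FDR of 0.05. Within a cultivar, Fisher's exact test of exudate against stigma library called 1 of 144 contrasts (0.694%) after Benjamini-Hochberg adjustment: mdm-miR164b in Spadona, 31.3 percentage points lower in the exudate library (difference -31.3, p = 7.04e-07, adjusted p = 0.000101). A further 9 of the 10 contrasts with an unadjusted p under 0.05 missed the adjusted threshold. These included mdm-miR390a in Hosui (3 of 41 reads in exudate and 1 of 337 in stigma, Fisher's exact p = 0.00441, adjusted p = 0.225) and mdm-miR2118a in Spadona (p = 0.00469, adjusted p = 0.225). For mdm-miR2118a in Hosui and Shinsui, Fisher's exact p was 0.130 and 0.139 (adjusted p = 0.751 and 0.753). Such a test compares 2 libraries and not the tissues, as reads of 1 library are not replicates.

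The quasi-likelihood test of edgeR, in which the cultivars are the replicates, kept only 2 miRs after its filter on low counts and called 1 of them (50%). That was mdm-miR2118a, higher in exudate (log2 fold change 1.62, SE 0.52, adjusted p = 0.00335), while mdm-miR482d had a log2 fold change of -0.14 (SE 0.17, adjusted p = 0.403). Under DESeq2 the sign of mdm-miR2118a turned (log2 fold change -0.46, adjusted p = 0.920), and mdm-miR482d was called lower (log2 fold change -2.29, adjusted p = 0.0497). The DESeq2 folds hold most of the difference in read totals (mean log2 ratio -2.59), since mdm-miR482d had nearly equal mean shares (48.3% and 50.7%). They are thus not read as differences in share. The edgeR filter asked for a minimum share in 3 libraries, which mdm-miR2118a reached in the exudates and not in the stigmas. The way it entered the test thus favoured its call, which is given as a value only. With no filter edgeR tested 82 miRs and called 2 (2.44%), both lower in exudate: mdm-miR164b (log2 fold change -4.66, adjusted p = 0.00105) and mdm-miR169a (log2 fold change -4.51, adjusted p = 0.00254), with mdm-miR2118a at 0.76 (adjusted p = 0.700). With no filter and library totals in place of TMM factors, a setting chosen after seeing the data, edgeR called 0 of 82 (7 at an unadjusted p under 0.05), and the log2 fold changes were -3.09 for mdm-miR164b (adjusted p = 0.0552), -3.23 for mdm-miR169a (adjusted p = 0.133) and 1.72 for mdm-miR2118a (adjusted p = 0.346). For mdm-miR164b and mdm-miR169a, with 3 and 1 exudate reads in all, the fitted fold changes depend on the prior count and are no bounds.

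The miR168 family was seen as 2 different entries. mdm-miR168a, the arm known to target the Argonaute transcript AGO1, had 1, 3 and 1 reads in the Hosui, Shinsui and Spadona exudates, against 0, 0 and 3 reads in the stigmas. Its share was 2.44%, 3.80% and 2.04% in exudate, against 0%, 0% and 0.586% in stigma, with limits of 0.890% and 1.51% for the stigmas at 0. All exudates thus held a read of it and lay above their stigma. fve-miR168-3p, which could pair with mdm-miR168a at 17 of 19 positions, had 1, 2 and 1 reads in exudate, against 7, 5 and 7 reads in stigma. In shares this was 2.44%, 2.53% and 2.04% in exudate, against 2.08%, 2.51% and 1.37% in stigma. The difference of fve-miR168-3p was 0.35 ± 0.33 percentage points, and without reads on mdm-miR482d its share was 4.17%, 7.14% and 3.33% in the Hosui, Shinsui and Spadona exudates, against 5.04%, 7.14% and 1.91% in their stigmas, so that it was higher in the Spadona exudate alone. The Fisher test gave p = 0.0223 (adjusted p = 0.536) for mdm-miR168a in Shinsui.

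In all, 12 miRs had more reads in the exudates than in the stigmas, 5 of them with a single exudate read. mdm-miR7121d, of a family with no role known for certain, had 2, 2 and 0 reads in the Hosui, Shinsui and Spadona exudates, against 0 in every stigma. mdm-miR7121a had 2, 1 and 0 exudate reads and likewise no stigma read. The pair differ in 1 base and may share reads. mdm-miR390a, which triggers the trans-acting small RNAs that target auxin response factors, had 3 reads in the Hosui exudate alone, against 1 read in the Hosui stigma. fve-miR156a and mdm-miR156a, of the family that targets SPL transcription factors, each had 1, 0 and 1 exudate reads, against 1, 0 and 0 stigma reads. mdm-miR162a, whose family targets the Dicer transcript DCL1, had 1, 1 and 0 exudate reads, against 0, 1 and 0 stigma reads. The remaining 5 were fve-miR156h and fve-miR162-5p in Hosui, mdm-miR408b in Shinsui, and mdm-miR7126-5p and ppe-miR858 in Spadona, each with 1 exudate read and none in stigma.

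Stigma reads without an exudate counterpart were mostly too few for the exudates to show. There were 41 miRs with stigma reads only, of which 25 had a single read and 13 had 2 reads. mdm-miR7124a had the most, with 5, 2 and 3 reads in the Hosui, Shinsui and Spadona stigmas and shares of 1.48%, 1.01% and 0.586%, all under the exudate limits. mdm-miR395a, of the family that targets ATP sulfurylases and a sulfate transporter, had 3 reads in the Spadona stigma alone. mdm-miR396f, whose family targets growth-regulating factors, had 1, 0 and 2 stigma reads. Counted within a cultivar, 30, 22 and 33 miRs of the Hosui, Shinsui and Spadona stigmas had no exudate read, and the stigma share was over the exudate limit in 1 case, mdm-miR169a in Shinsui. That stigma share, on 8 of 199 reads, had a Wilson interval of 2.05 to 7.73%, which spans the exudate limit of 3.80%. Conversely 7, 9 and 5 miRs of the Hosui, Shinsui and Spadona exudates had no stigma read, and the exudate share of 7, 2 and 5 of them was over the stigma limit. Most of these rested on 1 read, which in an exudate is a share of 1.27 to 2.44%. In Hosui and Spadona 1 exudate read was 2.44% and 2.04%, over the stigma limits of 0.890% and 0.586%. The counts of 7 of 7 and 5 of 5 were thus fixed by depth. In Shinsui 1 read was 1.27%, under the stigma limit of 1.51%. The counts of the 2 directions therefore cannot be compared.

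**Figure D3:**
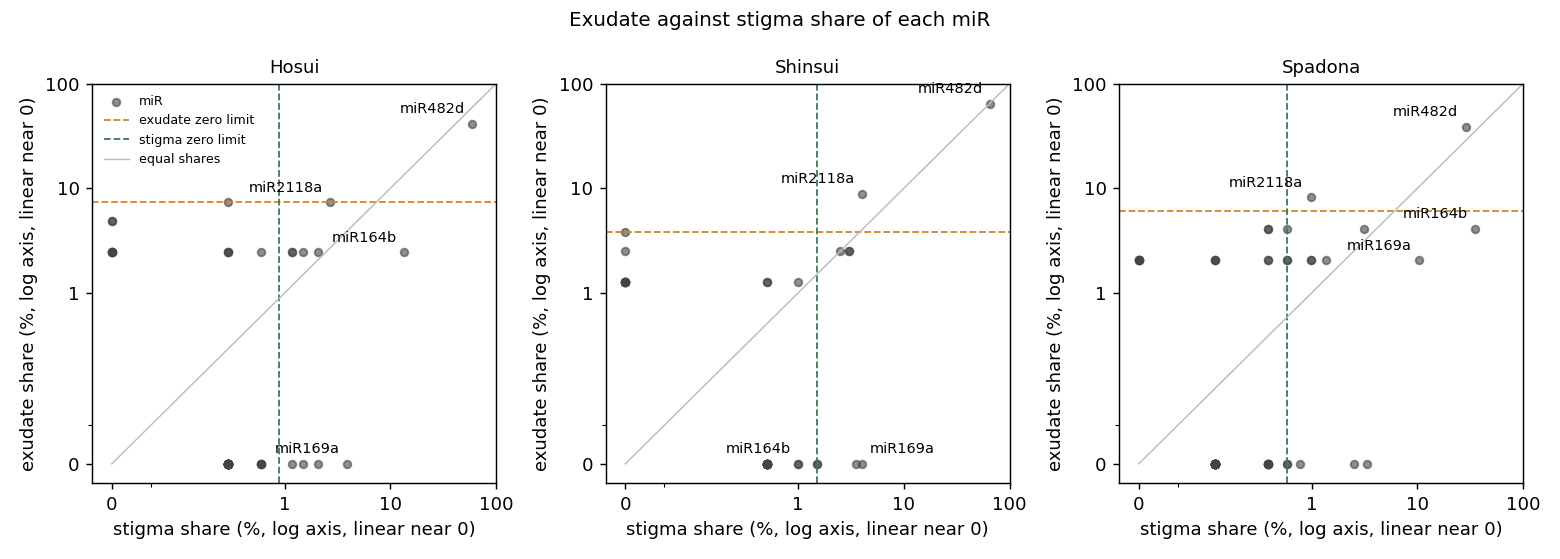
Share of each miR in exudate (vertical) against stigma (horizontal) for each cultivar, in % of the miR reads of the library on log axes that are linear near 0, with dashed lines at the share that a count of 0 allows. Apart from mdm-miR169a in Shinsui at 4.02%, every miR on the zero line of the exudate lay left of a stigma share equal to the exudate limit (7.32%, 3.80% and 6.12%).

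Other miRs of the stigma were seen in exudate at 1 to 3 reads. mdm-miR482a-3p, a miR482 of the arm known to target NBS-LRR genes, had 0, 0 and 2 reads in the Hosui, Shinsui and Spadona exudates, against 7, 7 and 16 reads in the stigmas. mdm-miR1511 had 1, 2 and 0 exudate reads, against 5, 6 and 17 stigma reads. fve-miR1511, with the same seed, had 1, 2 and 0 exudate reads, against 4, 6 and 13 stigma reads. Their mean differences, -1.55 ± 2.28, -0.95 ± 2.18 and -0.59 ± 1.90 percentage points, were within the spread between cultivars. mdm-miR159a, of the family that targets GAMYB transcription factors, had 1 read in each exudate, against 4, 2 and 3 reads in the stigmas, and a difference of 0.99 ± 0.64 percentage points. mdm-miR159d had 0, 0 and 1 exudate reads, against 4, 3 and 2 stigma reads. mdm-miR396b and mdm-miR396c each had 1 read in the Spadona exudate, against 8 and 7 reads over the stigmas. mdm-miR7120a-3p had 1 read in the Hosui exudate, against 2, 3 and 2 reads in the stigmas. mdm-miR399i, mdm-miR399d and mdm-miR399k, of the family that targets the phosphate regulator PHO2, differed in their last base only and each had 2 reads in the Spadona exudate, against 3, 2 and 2 reads in the Spadona stigma. Entries of such near-identical sequence can hold the same reads, and taking near-identical sequences (the first 19 bases equal, or 1 substitution at equal length) as 1 entry left 56 of the 82.

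By presence, called at 2 reads in a library of the tissue, 11 miRs were common to exudate and stigma. They were mdm-miR482d, mdm-miR2118a, mdm-miR482a-3p, mdm-miR164b, mdm-miR168a, fve-miR168-3p, mdm-miR1511, fve-miR1511 and the 3 miR399 entries. Exudate-specific, with no stigma read, were 2 miRs (mdm-miR7121a and mdm-miR7121d, 7 reads together), though in the wild pears each had 1 exudate read, against 7 stigma reads. Stigma-specific, with no exudate read, were 6 miRs (mdm-miR7124a, mdm-miR164a, mdm-miR395a, mdm-miR396a, mdm-miR396f and ppe-miR396a, 22 reads together). A further 1 miR present in exudate (mdm-miR390a) and 10 present in stigma had single reads in the other tissue and were set aside. All 3 exudates had mdm-miR482d and mdm-miR2118a in common as present miRs and no other, against 12 miRs common to all 3 stigmas. At 3 reads the classes shrank to 3 common, 0 exudate-specific and 2 stigma-specific miRs.

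The lower number of miRs in exudate was no longer seen at equal numbers of miR reads in Hosui and Spadona. The Hosui, Shinsui and Spadona exudates had 5, 7 and 7 miRs present, whereas draws of as many reads from their stigmas would hold 3.70, 6.99 and 4.92. At full depth these stigmas had 16, 12 and 26 miRs present. With 1 read as the criterion, the exudates held 19, 17 and 23 miRs, against 11.2, 17.4 and 12.9 in the thinned stigmas. The exudate was above its stigma in Hosui and Spadona and close to it in Shinsui by either criterion, but part of the surplus lay in near-identical entries such as the 3 miR399 of Spadona. With near-identical sequences taken as 1 entry, chosen after seeing the data, the exudates had 4, 6 and 5 miRs present, against 3.47, 6.03 and 4.32 expected. With 1 read they then had 16, 11 and 19 miRs, against 9.06, 14.5 and 9.55 expected, so that Shinsui lay below its stigma. Single-read miRs held 34.1%, 12.7% and 32.7% of the Hosui, Shinsui and Spadona exudate reads, against 7.72%, 9.05% and 4.88% of the stigma reads.

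**Figure D4:**
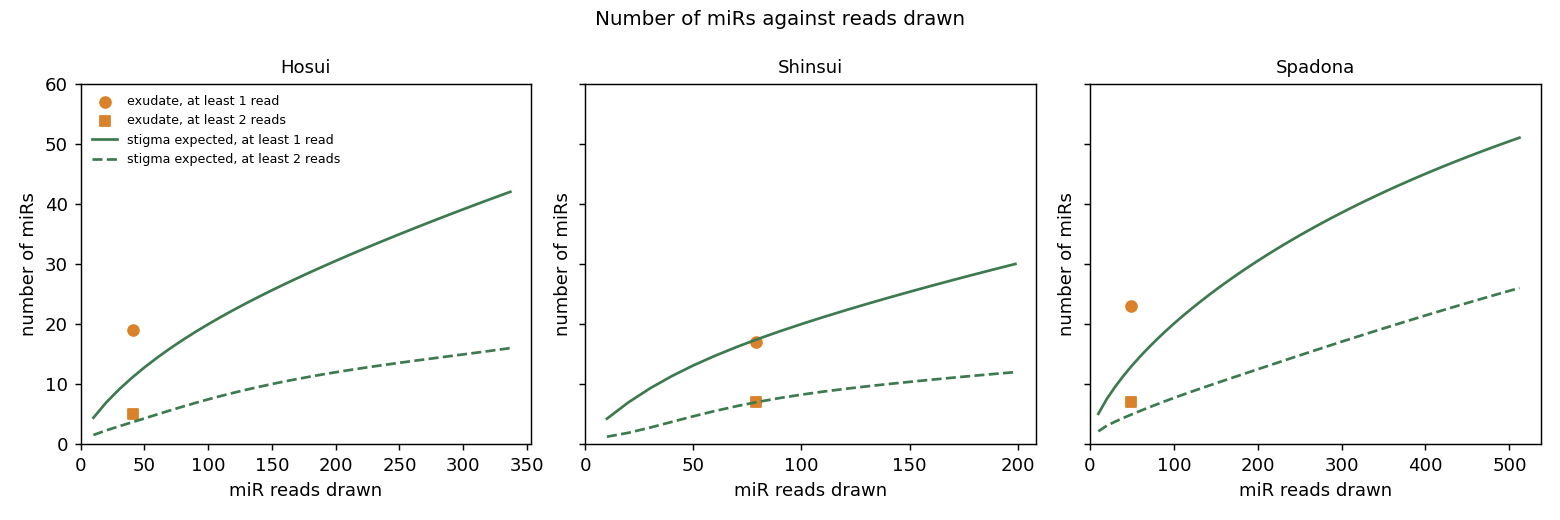
Number of miRs expected in draws of a given number of reads from each stigma library (green lines) and observed in the exudate of the same cultivar (orange points), at the criteria of 1 read (solid line, circle) and 2 reads (dashed line, square). In Hosui and Spadona the exudate points lay above the stigma curves, and in Shinsui they lay on them (17 miRs observed and 17.4 expected).

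Reads were next summed over families by their known roles, in 8 lists that do not overlap. Of the 82 miRs, 32 had a higher and 50 a lower mean share in exudate, with a median difference of -0.07 percentage points. The 41 miRs with stigma reads only could only be lower, so such counts largely restate which miRs had an exudate read. The regulators of transcription factors were lower in 3 of 3 exudates, with 14.6%, 2.53% and 22.4% of the Hosui, Shinsui and Spadona exudate reads, against 26.4%, 11.1% and 52.1% of the stigma reads. Their difference was -16.7 ± 11.4 percentage points (exact sign-flip test, p = 0.25, adjusted p = 1), and mdm-miR164b and mdm-miR169a had the largest differences among its members. Of the 378 stigma reads of the list, mdm-miR164b held 228 and mdm-miR169a 74, but of its 19 exudate reads only 3 and 1. The direction of the list thus cannot be read as that of its other members. By mean share, 9 of its 32 measured members were higher in exudate and 23 lower, with a median of -0.10, under the same limit.

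The regulators of RNA silencing were higher in 3 of 3 exudates. They held 9.76%, 7.59% and 4.08% of the Hosui, Shinsui and Spadona exudate reads, against 2.08%, 3.02% and 1.95% of the stigma reads, that is 12 and 23 reads in all. The groups did not overlap, and the mean was 7.14 ± 2.86% in exudate and 2.35 ± 0.581% in stigma (SD, n = 3 each), a difference of 4.80 ± 2.78 percentage points (exact sign-flip test, p = 0.25, adjusted p = 1). All 4 measured members had an exudate read and a higher mean share in exudate, with a median difference of 0.94, against 32 of all 82 miRs. fve-miR162-5p and mdm-miR162a had 1 and 2 exudate reads, against 0 and 1 in stigma, so their directions rested on 1 or 2 reads. fve-miR168-3p, the 3p arm, is not known to target AGO1, and it held 4 of the 12 exudate and 19 of the 23 stigma reads. The list was drawn up by family name, so its shares cannot be read as those of known regulators of silencing alone.

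The list of regulators of NBS-LRR resistance genes, drawn up by family name, held 48.8%, 73.4% and 55.1% of the Hosui, Shinsui and Spadona exudate reads, against 64.4%, 72.4% and 33.2% of the stigma reads. These shares cannot be read as those of known regulators of resistance genes. The list was dominated by mdm-miR482d, a member by name only. Without it, its members held 7.32%, 8.86% and 16.3% of the exudate reads, against 5.64%, 7.54% and 4.69% of the stigma reads, on 18 exudate and 58 stigma reads. In the Hosui and Shinsui exudates this was mdm-miR2118a alone, which had 14 of the 18 exudate reads, while mdm-miR482a-3p had no read there, against 7 reads in each of these stigmas.

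The other lists rested on few reads or on 1 cultivar. The auxin pathway held 7.32%, 6.33% and 0% of the Hosui, Shinsui and Spadona exudate reads, against 0.297%, 0.503% and 1.56% of the stigma reads. In Hosui this was mdm-miR390a, and in Shinsui it was 5 miR167 entries with 1 read each, which share their first 20 bases and may be the same read. The copper, phosphate and sulfate families held 12.2% of the Spadona exudate through the 3 miR399 entries, against 1.95% of its stigma. Families numbered above 5000, known from Rosaceae, held 12.2%, 3.80% and 2.04% of the exudate reads, against 3.86%, 5.03% and 2.34% of the stigma reads. The list of regulators of MYB genes had a single exudate read (ppe-miR858), against no stigma read. Families in no list, among them miR1511 and miR535, averaged 4.81 ± 2.65% in exudate and 5.45 ± 2.15% in stigma.

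**Figure D5:**
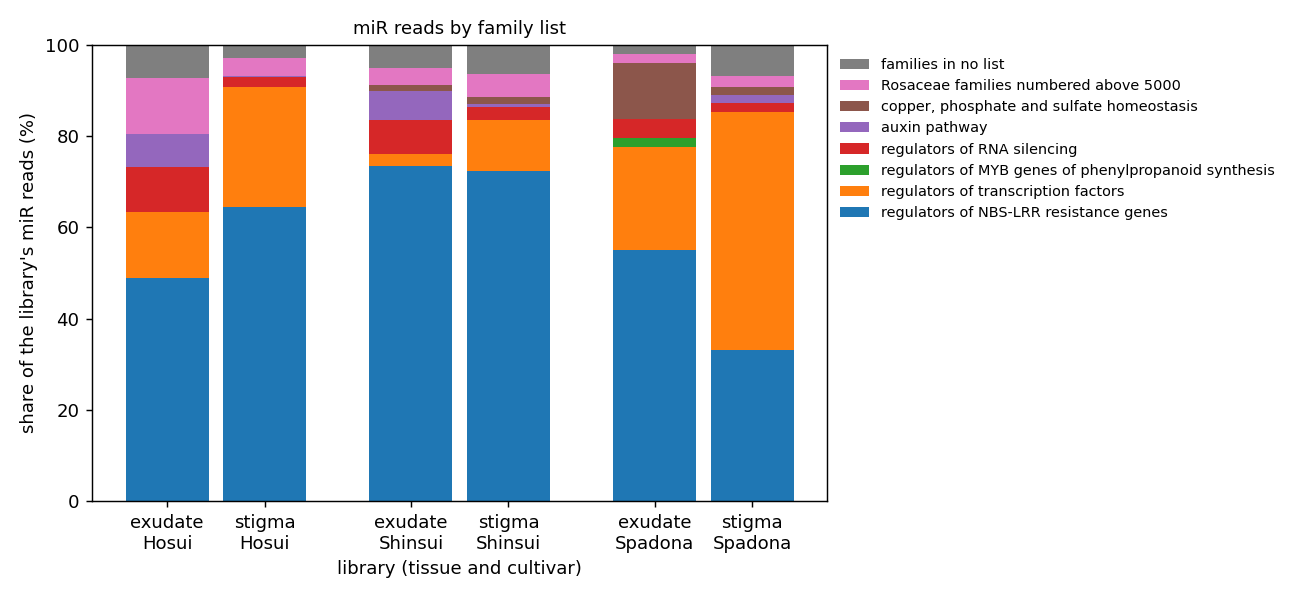
Share of the miR reads of each library (%, stacked bars from 0 to 100) by family list, with exudate left of stigma in each cultivar. The regulators of transcription factors took 2.53 to 22.4% of exudates and 11.1 to 52.1% of stigmas, and the regulators of RNA silencing 4.08 to 9.76% of exudates and 1.95 to 3.02% of stigmas.

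Libraries of the same tissue also differed between cultivars. In 24 Fisher's exact tests of 4 miRs between libraries of the same tissue, chosen after seeing the data, 10 passed after adjustment. The stigma share of mdm-miR164b differed between each pair of cultivars (Hosui against Shinsui, adjusted p = 2.83e-07), and the stigma share of mdm-miR482d was lower in Spadona than in Hosui or Shinsui (adjusted p = 2.00e-17 and 1.21e-17). Among the exudates, mdm-miR482d made up a larger share in Shinsui than in Hosui (adjusted p = 0.0479) or Spadona (adjusted p = 0.0202). These tests compare single libraries.

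Reads of 21 bases, by the length of the listed sequence, made up a smaller share of exudate reads. They were 85.4%, 84.8% and 79.6% of the Hosui, Shinsui and Spadona exudate reads, against 92.0%, 90.5% and 93.2% of the stigma reads. The difference was -8.61 ± 4.32 percentage points, lower in 3 of 3 cultivars (exact sign-flip test, p = 0.25). mdm-miR2118a, at 22 bases, and mdm-miR159a, at 20, were among the miRs of other lengths with a higher share in exudate. When each present miR was counted once, the difference was 2.12 percentage points in the other direction. Reads on sequences that start with U made up 26.7 ± 10.1% of exudate and 27.2 ± 18.7% of stigma reads (SD, n = 3 each), and the mean GC content was 48.5 ± 1.77% in exudate and 48.7 ± 3.90% in stigma.

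Set against the wild pears, the exudate-minus-stigma share of mdm-miR482d was lower in every cultivated pair, although Spadona had the sign of the wild pairs. It was -17.3, -0.27 and 10.3 percentage points in Hosui, Shinsui and Spadona, against 37.0, 50.6 and 19.4 percentage points in the wild pairs at 450, 830 and 900 m. The groups did not overlap, and their means of -2.43 and 35.7 percentage points differed by -38.1 (exact two-sided permutation test over 6 genotypes, p = 0.1, the smallest p that 3 against 3 allow; adjusted p = 0.333 over 10 items). mdm-miR164b was lower in exudate in every cultivated and wild pair, with means of -14.4 percentage points in cultivated and -28.0 in wild pears (p = 0.3 in the same permutation test). When reads on mdm-miR482d were left out, this difference of 13.6 percentage points between the means turned to -0.031. For the regulators of RNA silencing the pairs differed by 7.68, 4.58 and 2.13 percentage points in the cultivars, against 0.09, -2.22 and 1.04 in the wild populations at 450, 830 and 900 m (permutation p = 0.1, adjusted p = 0.333). Species, site and cultivation cannot be told apart in this contrast, and the wild stigmas held 794 to 1777 miR reads, against 199 to 512 in cultivated stigmas.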

How the data were processed

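Small RNA libraries of stigma exudate and stigma were prepared by the authors with a kit for picogram amounts of RNA and sequenced on an Illumina instrument. Per the labels and methods, adapter and poly-A removal by the authors used cutadapt 1.1, low-quality reads were dropped, and miRExpress aligned the rest to miRBase entries of apple, strawberry and peach with some mismatches allowed. The authors deposited raw counts with no normalization, 1 entry per unique mature sequence. No genome build is named for the listed miR positions in the sources used here, so no coordinates are printed. The deposited gene and term tables hold the authors' own comparisons and were not used.

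The members, gene lists and tests were chosen with earlier results of these data known. Groups and cultivars came from the labels. Counts were divided by the sum over all listed miRs of a library (41 to 79 in exudates, 199 to 512 in stigmas). Shares carry 95% Wilson intervals (scipy 1.17.1), and 3 reads is the limit of a count of 0. Shares were compared by exact sign-flip tests over cultivars (miRs with at least 10 reads), Fisher's exact tests within a cultivar, and the quasi-likelihood test of edgeR 4.0.16 with TMM factors after filterByExpr (Benjamini-Hochberg FDR of 0.05), with DESeq2 1.42.0 as an alternative. The standard errors of edgeR folds were derived from the p-values. The procedures were tested on simulated data, for edgeR and Fisher's test with far larger read totals than in these libraries. How these tests behave at the real totals was not tested. The exudate and stigma of a cultivar are paired by genotype. Over 11 miRs the correlation of their deviations from the tissue means was -0.04 in Hosui, 0.64 in Shinsui and 0.21 in Spadona. Across cultivars it ran from -0.47 to 0.43, with 0.43 for Hosui exudate and Spadona stigma and 0.32 for Spadona exudate and Hosui stigma. Hosui and Spadona exudates thus correlated more with another cultivar's stigma than with their own. Named miRs were those with at least 2 reads in an exudate, the 10 highest in stigma, all called ones, the 5 highest in stigma without an exudate read, those with more exudate than stigma reads and the 2 most abundant of each list; ties at 2 stigma reads were left unnamed. miR845, enriched in Arabidopsis pollen, is listed once and had no read in the cultivated libraries.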

Additional observations from a re-analysis of the deposited data

How the results depend on the processing

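Among the alternatives run, the read total kept its direction in all of them (mean log2 ratio -2.19 to -3.21 with a cultivar left out). The count of miRs called by edgeR, 1 in the test reported, was 3 with DESeq2 (mdm-miR164b, mdm-miR169a and mdm-miR482d, all lower, adjusted p = 0.0497 each), 2 with no filter, 2 with all 12 libraries in 4 groups and, chosen after seeing the data, 2 with no filter and a replicate block and 0 with no filter and library totals. Leaving out a library or a cultivar gave 0 to 1 calls, with 0 when the Hosui or Spadona exudate or the Shinsui stigma was left out. Leaving out the Hosui or Spadona stigma kept 1 miR, which gives no test, and without Shinsui the call was mdm-miR164b (adjusted p = 0.0485) in place of mdm-miR2118a. The replicate block (pairing by cultivar) changed no call: mdm-miR2118a had a log2 fold change of 1.59 (adjusted p = 0.0263), and without the filter 0.78 with the block (adjusted p = 0.947). Under DESeq2, whose folds and calls hold most of the difference in read totals, its log2 fold change was -0.46.

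Fisher contrasts within a cultivar gave 4 calls with 1 entry per family (miR164 lower in Spadona, and miR7121 in Hosui, miR167 in Shinsui and miR399 in Spadona higher), where reads shared by near-identical entries may be summed more than 1 time. Counts of common, exudate-specific and stigma-specific miRs were 34, 7 and 41 at 1 read and 3, 0 and 2 at 3 reads, and 5 to 11, 1 to 3 and 6 to 8 without a cultivar. The surplus of exudate miRs at equal numbers of miR reads, 1.13 on average, was 5.83 at 1 read and 0.394 with near-identical sequences as 1 entry. Scaled by the TMM factors computed on 2 miRs, miRs lower in every exudate numbered 5, and the difference of the resistance list turned to -0.21. With a cultivar left out, mean differences in percentage points ran from -8.78 to 4.996 for mdm-miR482d (positive without Hosui), from -1.51 to 0.38 for fve-miR1511 and from -1.90 to 0.24 for mdm-miR1511 (both positive without Spadona). Among the lists they ran from -7.28 (without Spadona) to 11.5 for resistance genes, from -0.12 (without Spadona) to 5.15 for copper, phosphate and sulfate, from -0.77 (without Hosui) to 4.02 for families above 5000 and from -3.13 to 1.44 (without Spadona) for families in no list. Reads starting with U ran from -3.46 to 4.93 and GC from -1.56 to 1.54, both positive without Spadona. With each present miR once, reads starting with U turned to 6.60, GC to 4.63 and 21-base reads to 2.12. In the contrast of cultivated with wild pairs, leaving mdm-miR482d out turned mdm-miR164b to -0.031 and the transcription factor list to -4.67. The copper, phosphate and sulfate list was -4.17 without Spadona and turned to 0.98 without Hosui, 1.10 without Shinsui and 0.83 without the wild population at 900 m. Families above 5000 were -3.53 without Hosui and turned to 1.26 without Shinsui, 0.79 without Spadona and 1.31 without that population. The cause of these changes was not tested. With 41 to 79 reads in an exudate, 1 read is a share of 1.27 to 2.44%, so differences under the exudate limits of 3.80 to 7.32% were not detectable for a miR without a read.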
